A study of Homo sapiens with 4 samples.

Results

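TARDBP encodes TDP-43, an RNA-binding protein of the nucleus that controls splicing and 3' end formation, and that is lost from the nucleus of affected neurons in most amyotrophic lateral sclerosis. This account describes TARDBP (ENSG00000120948.19, chromosome 1, plus strand, hg38), 1 of 77973 genes in the deposited gene table. It was chosen by its identifier, together with every transcript annotated to it: 38 of 392871 transcripts, of which 9 had reads. No transcript outside the reference annotation was reported for TARDBP (0 of these 38).

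The RNA came from cortical neurons (i3N) induced by NGN2 under a doxycycline promoter in the KOLF2.1J line of human induced pluripotent stem cells, which is an established line. All 4 groups shared this line, a constitutive dCas9-BFP-KRAB construct for CRISPR interference, in which a dead Cas9 brings a repressor to the start of the targeted gene, and a lentiviral guide RNA selected with puromycin as a stable pool. The control and azacytidine groups are taken here to carry the non-targeting guide, and the knockdown group and the group with both treatments the guide against TDP-43. Both azacytidine groups received 5 µM 5-Azacytidine, an inhibitor of DNA methylation that is also built into RNA, for 72 hours. The day of harvest was given as 1 of 2 days, without saying which applied to these libraries.

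Each group had 1 library of polyadenylated RNA, read as long PacBio cDNA molecules (Iso-Seq). Gene-assigned reads numbered between 466337 (azacytidine) and 767621 (knockdown), with 595158 in the control and 477622 with both treatments. No group has a replicate, and the tests below compare the reads of 2 libraries, not the conditions. Each treatment is seen in 2 pairs that share no library, so an additive model of both treatments over the 4 libraries, with 1 residual degree of freedom, was added after the values were seen and is given beside the calls. All 10 neuron markers had reads in every library. Markers of other cells moved with azacytidine: the summed level of 6 genes of dividing cells was 676 and 651 CPM (reads scaled to a common library size, per 1000000 reads of effective size) without it and 50.6 and 43.3 with it. The 5 neural progenitor markers summed to 752 and 671 against 123 and 109, and the 5 astrocyte markers to 50.01 and 48.2 against 2.02 and 0. The 8 pluripotency markers summed to between 287 and 423, and NANOG had 0 reads in the control and in both knockdown libraries, as POU5F1 had in the latter. With both treatments 4 of 6 dividing cell, 3 of 5 progenitor, 0 of 5 astrocyte and 3 of 8 pluripotency markers had reads, against 6, 5, 3 and 7 in the control. In bulk RNA, fewer cells of a type and less RNA per cell cannot be told apart. The part of these cells in the azacytidine comparisons below was not tested.

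TDP-43 keeps its own level in check through a feedback loop. The protein binds the 3' untranslated region of its own messenger RNA, where introns are normally retained and several polyadenylation sites can be used. When the protein is abundant, splicing inside this region and a switch of polyadenylation site are favoured, and the resulting RNA is kept in the nucleus or degraded, in part by nonsense-mediated decay, the pathway that removes messages with a premature stop codon. When the protein is scarce, the message with the full last exon is favoured. Reduced splicing after the stop codon is therefore the known signature of low TDP-43, and the transcripts are ordered below by whether they are spliced there.

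The structure of the region is shown by the splice sites that the annotated transcripts with reads use in it, since these decide to which transcript a read is assigned. In TARDBP-201, the main transcript, exon 6 is the last exon and runs from 11022124 to 11025492 (3369 bases), with the stop codon at 11022652 to 11022654. Other transcripts with reads remove introns from within this exon. These are an intron of 942 bases that starts in the coding part, and the inner introns from 11023330 to 11024063 (734 bases) and from 11024336 to 11025109 (774 bases). ENST00000622108 joins the donor of the first inner intron to the acceptor of the second, which removes 1780 bases (11023330 to 11025109). A further splice donor lies at 11025208 and joins exons downstream of the gene's main end. The introns of 942, 734 and 774 bases begin with GT and end with AG. In the windows below, on the plus strand of GRCh38 from GENCODE 29 transcripts, capitals mark exon bases and lower case the intron.
exon 6 acceptor, chr1:11023183-11023202: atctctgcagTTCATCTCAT
first inner donor, chr1:11023320-11023339: GTCTTTGACGgtgggtgtcc
first inner acceptor, chr1:11024054-11024073: tgttttgcagCCCTGAATGC
second inner donor, chr1:11024326-11024345: ACCTAAAATGgtaagcagta
second inner acceptor, chr1:11025100-11025119: tgcattttagCACTTGCACT
last donor, chr1:11025199-11025218: GAGCCCAGGGgtaagttaac
The exon 6 donor lies before the stop codon, inside the coding sequence, so its use removes the coding end with the stop codon itself. The other donors lie after the stop codon and leave the coding sequence unchanged when they are used alone.

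TDP-43 binds UG-rich RNA. The letters TGTGTG, searched on the transcript strand with overlaps allowed, occurred 2 times in the 2838 bases from the stop codon to the end of exon 6, both inside the first inner intron. In the same length after the stop codon, 74.1% of 3783 genes with such a stretch had at least 1 match, and the median was 1. The count is a description of letters and shows no binding site.

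**Figure D1:**
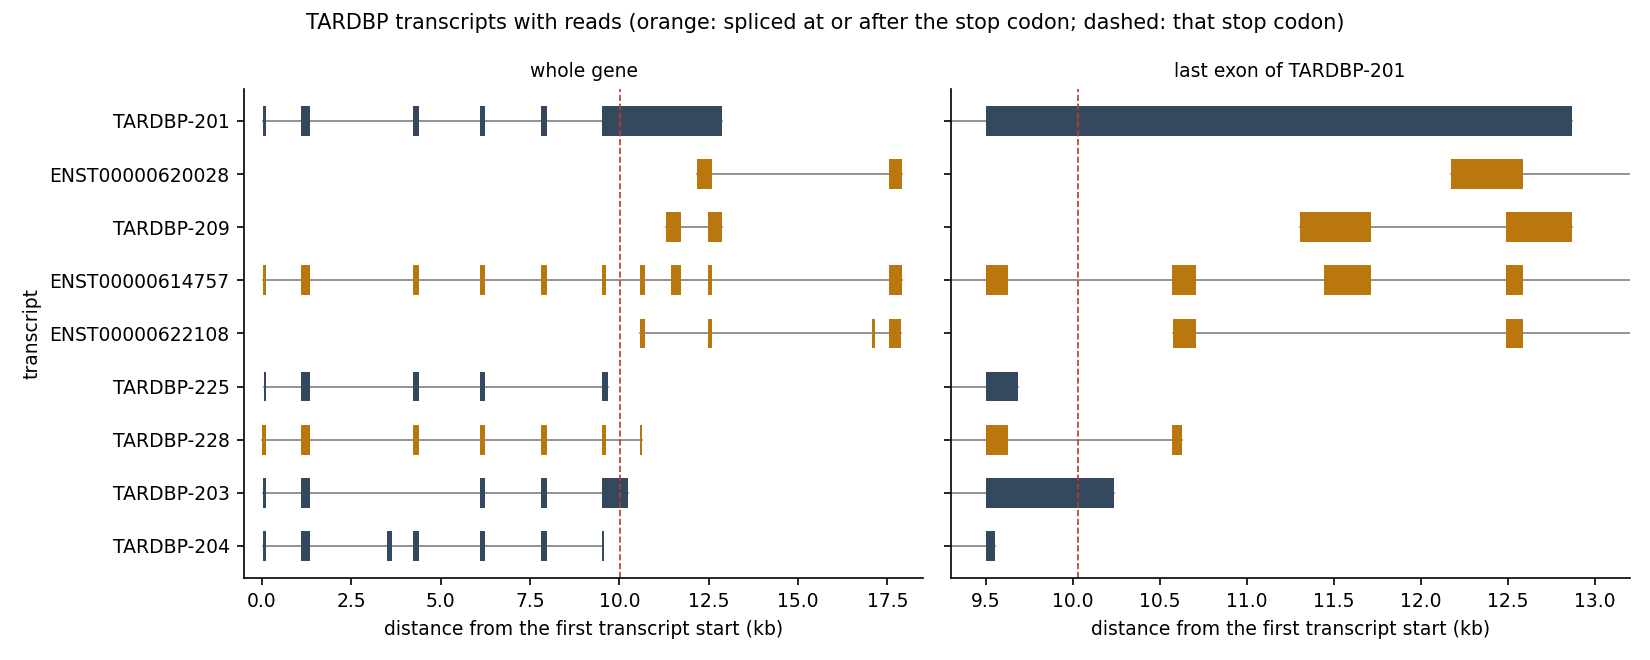
Exons (boxes) and introns (lines) of the 9 TARDBP transcripts with reads, by distance in kb from the first transcript start; the left panel shows the whole gene and the right panel the last exon of TARDBP-201. Orange transcripts remove sequence at or after the stop codon (dashed line) by an intron, and 3 of them end beyond TARDBP-201.

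TARDBP was read 104 times in the control, 72 times in the knockdown, 73 times under azacytidine and 43 times in the combined treatment. The level was 167.8 CPM in the control (exact 95% Poisson interval 137.1 to 203.3), 105.1 CPM in the knockdown (82.2 to 132.3), 147.7 CPM in the azacytidine library (115.8 to 185.7) and 88.7 CPM with both (64.2 to 119.5). The order was control, azacytidine, knockdown and both. The interval of the control lay above that of each knockdown library, while the intervals of control and azacytidine overlapped, as did those of the knockdown libraries. The azacytidine interval also overlapped that of each knockdown library. Among the 8145 genes tested, those averaging at least 20 reads over the libraries, TARDBP ranked 997 in the control, 1353 with azacytidine, 3054 in the knockdown and 3444 with both. These ranks compare read numbers per gene, which are not scaled to length.

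The knockdown libraries held 62.6% of the TARDBP level of the control and 60.1% of that of the azacytidine library. Without azacytidine the log2 ratio was -0.67 (exact 95% interval -1.13 to -0.23), and it passed the exact binomial test with Benjamini-Hochberg adjustment over 8145 genes (adjusted p = 0.0170). In this comparison 3.73% of genes passed as lower and 16.4% as higher, and 6.58% of genes had a lower ratio than TARDBP. With azacytidine the log2 ratio was -0.73 (-1.31 to -0.17), with an unadjusted exact p of 0.00904 and an adjusted exact p of 0.0573, above the threshold of 0.05. There 5.93% of genes passed as lower, and 11.1% had a lower ratio. The call without azacytidine was lost when every gene with at least 1 read was tested (adjusted exact p = 0.0543) and with full-length reads alone (log2 ratio -1.51, adjusted exact p = 0.103). The ratio with azacytidine passed under total counts (-0.79, adjusted exact p = 0.0316). It also passed with counts not halved, which count each read as 2 (adjusted exact p = 0.00108). In the additive model the knockdown had a log2 ratio of -0.70, which did not pass (edgeR quasi-likelihood test, unadjusted p = 0.0292, adjusted p = 0.486), and over all 8145 genes that test called 3 higher and 0 lower. Before adjustment, 574 positive and 175 negative ratios had p below 0.05. The difference between the log2 ratios of the 2 exact comparisons was -0.06 (exact test of the odds ratio over the 4 libraries, p = 0.903). It was of the opposite sign under total counts (0.10, p = 0.806 in the same exact test). A CRISPR interference guide acts on transcription and does not cut the RNA. Both libraries labelled as knockdowns had the lower TARDBP level of their pair, and the cause of this was not tested.

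Azacytidine alone left TARDBP at 88.1% of the control level, a log2 ratio of -0.18 (-0.64 to 0.26, adjusted exact binomial p = 0.640). Within the knockdown it left 84.4% (-0.24, -0.82 to 0.32, adjusted exact p = 0.526). A change within these intervals was not detectable at this depth. In these comparisons 26% and 42.3% of all genes passed the test. The additive model gave azacytidine a log2 ratio of -0.21 (edgeR quasi-likelihood test, adjusted p = 0.655). With both treatments TARDBP stood at 52.9% of the control (log2 ratio -0.91, -1.47 to -0.39, adjusted exact p = 0.00160), where 17.1% of genes passed as lower.

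The main transcript was lower in both knockdown libraries. TARDBP-201 (ENST00000240185.8, 11012654 to 11025492, 6 exons, 4185 bases) codes for the full protein of 414 codons, stop codon excluded, and carries the unspliced last exon. It held 73 reads in the control, 43 in the knockdown, 51 with azacytidine and 21 with both, after rounding of estimated counts. This was 117.8, 62.7, 103.2 and 43.3 CPM. Both knockdown libraries were below both others. The log2 ratio of the knockdown was -0.90 without azacytidine (-1.49 to -0.35, exact binomial p = 0.00105, 0.00422 adjusted over 16 comparisons of this kind) and -1.23 with it (-2.06 to -0.49, exact p = 0.000558, adjusted 0.00396). The levels were 53.3% and 42.0% of those in the library compared. This split of the gene's reads, and the one in the next paragraph, were chosen after the values were seen.

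TARDBP reads assigned to any transcript numbered 86 in the control, 47 in the knockdown, 62 with azacytidine and 29 with both. The knockdown libraries held 49.4% and 47.7% of the levels compared, with log2 ratios of -1.01 (-1.56 to -0.49, adjusted exact binomial p = 0.00131) and -1.06 (-1.76 to -0.41, adjusted exact p = 0.00396), adjusted over the same 16 comparisons. Tested among all genes on sums of transcript counts, with the sizes of that table, the ratio was -0.96 without azacytidine (adjusted exact p = 0.00964) and -0.92 with it, which did not pass (adjusted exact p = 0.0847). The transcripts other than TARDBP-201 held 13 reads in the control, 4 in the knockdown, 11 with azacytidine and 8 with both. Their log2 ratios were -1.73 (-3.92 to -0.15, exact p = 0.0259, adjusted 0.0828) and -0.41 (-1.95 to 1.02, exact p = 0.648). For reads assigned to any transcript, the median ratio over all genes was 0.08 and -0.08, and 2.96% and 6.90% of genes lay below TARDBP. Reads counted for the gene but assigned to no transcript numbered 18, 25, 11 and 14. Their log2 ratios were 0.32 (-0.60 to 1.29, exact p = 0.542) and 0.36 (-0.87 to 1.66, exact p = 0.554), and over all genes the medians were 0.34 and 0.32. These intervals reach from a fall to a rise, and 48.7% and 51.4% of genes lay below TARDBP. With azacytidine none of the 8 such ratios, over TARDBP-201, the other transcripts, any and no transcript, passed an exact test (smallest unadjusted exact p = 0.0857).

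**Figure D2:**
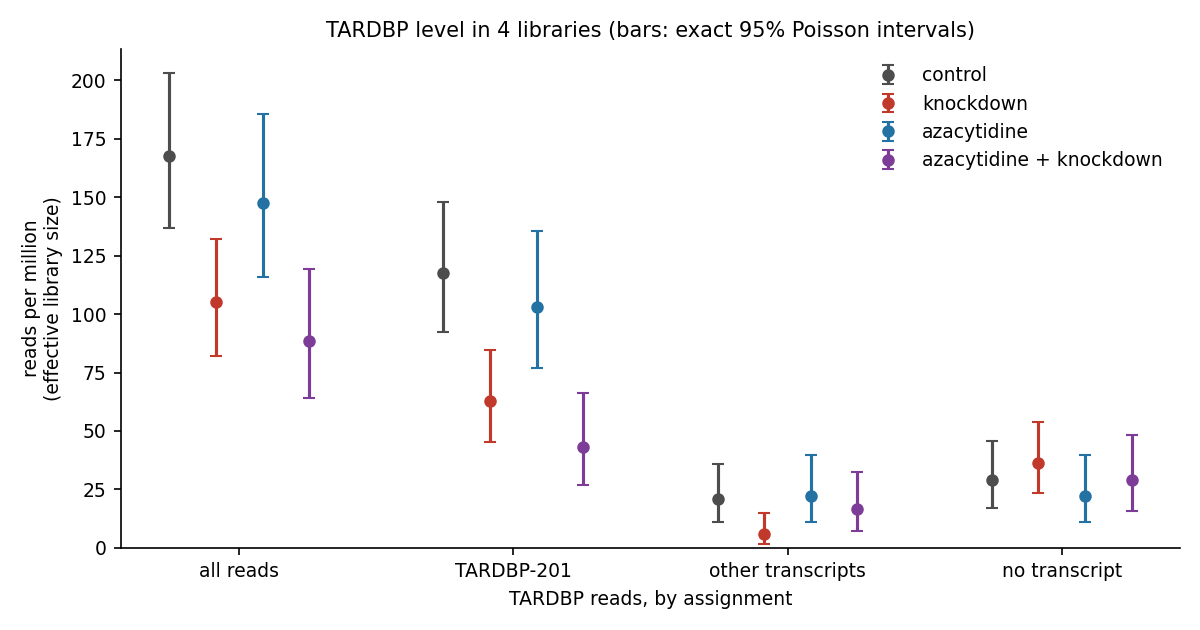
TARDBP level (y axis, CPM) in the 4 libraries (colours), for all reads of the gene and for reads assigned to TARDBP-201, to the other transcripts and to none (x axis). Bars are exact 95% Poisson intervals; the 2 knockdown libraries lie below the others for TARDBP-201 (62.7 and 43.3 against 117.8 and 103.2) and not for reads in no transcript.

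Reads without a transcript made up 17.3% of TARDBP reads in the control (18 of 104, 95% Wilson interval 11.2% to 25.7%) and 34.7% in the knockdown (25 of 72, 24.8% to 46.2%). With azacytidine they made up 15.1% (11 of 73, 8.63% to 25.002%) and 32.6% when the knockdown was added (14 of 43, 20.5% to 47.5%). Both knockdown libraries had the higher shares. The differences were 17.4 and 17.5 percentage points (Fisher's exact p = 0.0120 and 0.0356), which did not pass adjustment over 8145 genes (adjusted exact p = 0.0896 and 0.228). With counts not halved, which count each read as 2, they passed (adjusted exact p = 0.00180 and 0.0160). The same test called 10.3% and 6.29% of all genes. The share was also higher for the median gene, which stood at 28.9% in the control, 34.1% in the knockdown, 25.5% with azacytidine and 32.3% with both, and the median change was 3.50 and 4.88 points. The change of TARDBP was above that of 83.4% and 80.7% of genes. In the control and azacytidine libraries, 28.5% and 29.3% of genes had a smaller share than TARDBP, and in the knockdown libraries 51.1% and 50.5%. The part of this shift across the library in the result for TARDBP was not tested. With azacytidine the share changed by -2.24 and -2.16 points without and with the knockdown (adjusted exact p = 1 in both), where the test called 6.56% and 9.1% of genes.

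**Figure D3:**
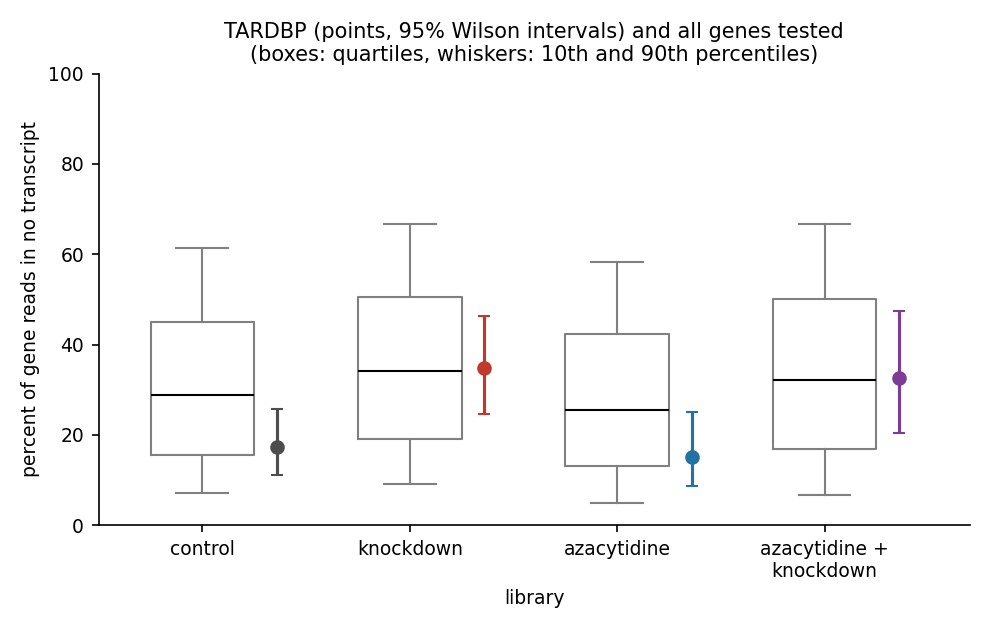
Percent of reads of a gene that were assigned to no transcript (y axis) in each library (x axis): points are TARDBP with 95% Wilson intervals, boxes the quartiles of 8145 genes with the median, and whiskers the 10th and 90th percentiles. TARDBP lay at 17.3% and 15.1% in the control and azacytidine libraries, below the median gene, and at 34.7% and 32.6%, near it, in the knockdown libraries.

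TARDBP-201 held 84.9% of the transcript reads of the gene in the control, 91.5% in the knockdown, 82.3% with azacytidine and 72.4% with both. The knockdown differences were 6.61 points without azacytidine (Fisher's exact p = 0.416) and -9.84 points under it (exact p = 0.285), and the test of the difference in effect gave an exact p of 0.242 (Zelen's test). The lowest unadjusted p-value was that of azacytidine within the knockdown, a difference of -19.1 points (exact p = 0.0486), which did not pass adjustment over the 15469 transcripts tested (adjusted exact p = 0.286). TARDBP-201 and ENST00000620028 had enough reads for this test, and 0 of these 2 passed in any comparison, where 7.34%, 4.49%, 6% and 7.65% of all transcripts did (knockdown without and with azacytidine, azacytidine without and with the knockdown).

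Most TARDBP-201 reads fitted no other transcript: 66 of its control reads, 40 of those in the knockdown, 42 with azacytidine and 19 with both were assigned to it alone. Fewer were counted as full-length, 22, 8, 15 and 4 reads. This was 30.1% in the control (95% Wilson interval 20.8% to 41.4%), 18.6% in the knockdown (9.74% to 32.6%), 29.4% in the azacytidine library (18.7% to 43.0%) and 19.0% in the combined one (7.67% to 40.0%), against 28.2%, 23.3%, 35.7% and 31.2% of the transcript reads of each library. The knockdown differences did not pass Fisher's exact test (p = 0.194 and 0.557). Reads are assigned by their introns, and whether reads counted as full-length, here and below, covered both transcript ends was not tested.

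**Figure D4:**
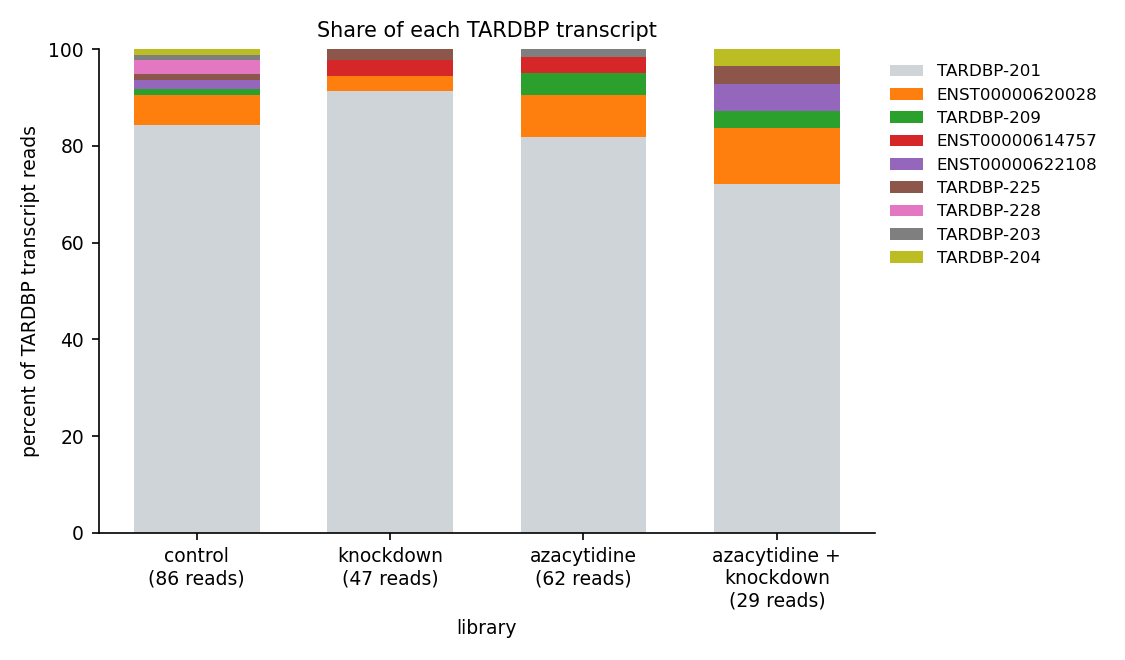
Percent of TARDBP transcript reads assigned to each of 9 transcripts (colours) in each library (x axis, with the number of reads). TARDBP-201, in grey, made up most reads in every library, and the other transcripts rest on 13, 4, 11 and 8 reads.

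Of the 38 TARDBP transcripts, 28 are spliced at or after the stop codon of the full protein, and 5 of these had reads. Together they held 10 of 86 transcript reads in the control (11.6%, 95% Wilson interval 6.44% to 20.1%), 3 of 47 in the knockdown (6.38%, 2.19% to 17.2%), 10 of 62 with azacytidine (16.1%, 9.004% to 27.2%) and 6 of 29 with both (20.7%, 9.85% to 38.4%). The intervals of all 4 libraries overlapped. The knockdown differences were -5.24 points without azacytidine and 4.56 points under it (Fisher's exact p = 0.381 and 0.571). With azacytidine the share was 4.50 points higher without the knockdown and 14.3 points higher within it (exact p = 0.471 and 0.0770, adjusted over the 4 comparisons 0.571 and 0.308). The latter passed with counts not halved, which count each read as 2 (adjusted exact p = 0.0415). For the former, unique reads gave -1.43 points, from 1 of 70 in the control and 0 of 43 with azacytidine. Unique reads leave out those shared by several spliced transcripts. Whether the knockdown effect differed with azacytidine gave an exact p of 0.397 by Zelen's test. Differences in splicing that stay within these intervals were not detectable at this depth.

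The most read of the spliced transcripts was ENST00000620028, which begins inside exon 6 at 11024793, uses the last donor and ends at 11030525 after an intron of 4970 bases. Its estimated reads were 5.33 in the control, 1.43 in the knockdown, 5.43 with azacytidine and 3.35 with both. None of these reads was unique to it (0 in each library) and none was full-length (0 in each), so its level rests on the division of shared reads. ENST00000622108, from 11023198 to 11030497 with 4 exons, held 1.67 and 1.65 estimated reads in the control and in the library with both, of which 1 in each was unique, and 0 in the others.

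TARDBP-209 (ENST00000480464.2, 11023929 to 11025492), a non-coding transcript that removes the second inner intron, had 1 read in the control, 0 in the knockdown, 2.78 with azacytidine and 1 with both. All of them were full-length and 0 were unique. ENST00000614757 runs from the promoter to 11030528 in 10 exons and uses the exon 6 donor, both inner introns and the last donor. It was estimated at 1.64 reads in the knockdown and 2.09 with azacytidine, with 0 in the other libraries and 0 unique or full-length reads. TARDBP-228 (ENST00000629725.2, 11012622 to 11023248) joins the exon 6 donor and acceptor and ends shortly after. It had 2.46 estimated reads in the control, of which 2 were full-length, and 0 in the other 3 libraries. A count of 0 allows a share of up to 6.38% of transcript reads in the knockdown, 4.84% with azacytidine and 10.3% with both.

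In the annotation, 7 transcripts end in the distal exon, between 11030430 and 11030528. TARDBP-210, which ends at 11025739, also past TARDBP-201, is not counted among them and had 0 reads. ENST00000620028, ENST00000614757 and ENST00000622108 had reads, and together held 7 of 86 transcript reads in the control (8.14%), 3 of 47 in the knockdown (6.38%), 8 of 62 with azacytidine (12.9%) and 5 of 29 with both (17.2%). No difference in this share passed Fisher's exact test (p = 1 and 0.749 for the knockdown, 0.412 and 0.247 for azacytidine). Exon 6 and the distal exons lie opposite the gene MASP2 (11022009 to 11047239, minus strand), which had 7 reads in the control, 0 in the knockdown and 3 in each azacytidine library. Whether strand was used in the counting is not given in the sources used here, so unspliced reads there could have been counted for either gene. Reads spliced at TARDBP's junctions are assigned by their introns, as were the unique reads of ENST00000622108. Cleavage at different polyadenylation sites within the full last exon leaves the introns unchanged and is not resolved by these tables.

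The remaining transcripts with reads differ from TARDBP-201 inside the coding part. TARDBP-225 (ENST00000621715.4, 11012670 to 11022310) skips exon 5 of 171 bases, a multiple of 3, and had 1 unique, full-length read in the control, in the knockdown and in the library with both, and 0 with azacytidine. TARDBP-203 (ENST00000439080.6, 11012653 to 11022858) skips exon 3 of 164 bases, and TARDBP-204 (ENST00000472476.5, 11012654 to 11022176) includes a cassette exon of 132 bases at 11016123 to 11016254. Both are annotated as targets of nonsense-mediated decay. TARDBP-203 had 1 unique read in the control and 1 with azacytidine, and TARDBP-204 1 in the control and 1 with both. Together they held 2 reads in the control, 0 in the knockdown and 1 in each azacytidine library. The junction of exon 2 with the cassette exon of TARDBP-204 is shown because it carries the in-frame stop codon, in capitals, at 11016125 to 11016127 (12 bases of exon 2, ending at 11013965, then 12 of the cassette).
TARDBP-204 junction, GRCh38 plus strand, from GENCODE 29: actatccaaaagtaTAGacggcgt
The other 29 annotated TARDBP transcripts had 0 estimated reads in all 4 libraries. They include 23 of the 28 transcripts spliced at or after the stop codon. The pseudogenes TARDBPP1, TARDBPP2 and TARDBPP4, copies that could share reads with the gene, had 0 reads in every library.

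The transcripts with reads that begin at the promoter do so at 5 positions from 11012622 to 11012670. The 300 bases around the RefSeq start (GRCh38.p14, 11012404 to 11012703) hold 17 CG pairs, the bases at which DNA is methylated, and 54.0% of 35116 promoters of this length hold fewer. Within 200 kb of TARDBP on either side, 16 other genes are annotated, of which 7 had reads and 2 enough for the test. EXOSC10, a catalytic subunit of the nuclear RNA exosome, had 58 reads in the control, 84 in the knockdown, 68 with azacytidine and 65 with both, and passed in no comparison (smallest adjusted exact binomial p = 0.0969). MTOR, the kinase of the mTOR growth pathway, had 110 reads in the control, 128 in the knockdown, 70 with azacytidine and 122 with both. Its log2 ratio for the knockdown was 0.07 without azacytidine (adjusted exact p = 0.851), and it rose with the knockdown under azacytidine (log2 ratio 0.82, adjusted exact p = 0.00200), as 9.09% of genes did. Azacytidine gave -0.32 without the knockdown (adjusted exact p = 0.311) and 0.43 within it (adjusted exact p = 0.0491), where 16.8% of genes were higher. In the additive model MTOR had 0.44 for the knockdown and 0.07 for azacytidine, and neither passed (edgeR quasi-likelihood test, adjusted p = 0.676 and 0.911).

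The factors that make, splice and degrade the TARDBP message were described from 3 lists. In the knockdown against the control, 6 of 17 tested cleavage and polyadenylation factors were higher and 1 lower, with a median log2 ratio of 0.26, and under azacytidine 5 were higher and 0 lower, with a median of -0.02. Over all genes 16.4% were higher and 3.73% lower, with a median of 0.18, and under azacytidine 9.09% and 5.93%, with a median of 0.05. Total counts changed these shares without azacytidine to 7.70% and 7.76%, the median of all genes to -0.04 and that of the list to 0.04. Reads are given in the order control, knockdown, azacytidine and both where no library is named. SYMPK, the symplekin scaffold of the cleavage complex, had 69 reads in the control, 129 in the knockdown, 94 with azacytidine and 183 with both. It rose in both knockdown comparisons (log2 ratios 0.75 and 0.99, adjusted exact binomial p = 0.00365 and 1.87e-06) and in both azacytidine comparisons (0.77 and 1.00, adjusted exact p = 0.00448 and 1.49e-08). CPSF1, the largest subunit of the cleavage and polyadenylation specificity factor, had 71, 120, 51 and 94 reads and rose with the knockdown by 0.61 and 0.90 (adjusted exact p = 0.0280 and 0.00342). PAPOLA, a poly(A) polymerase, had 166, 268, 158 and 230 reads and rose by 0.54 and 0.57 (adjusted exact p = 0.00146 and 0.00220). Of all genes 2.77% were higher in both knockdown comparisons. In the additive model none of these 3 passed for the knockdown (edgeR quasi-likelihood test, adjusted p = 0.421 for SYMPK, 0.457 for CPSF1 and 0.561 for PAPOLA), nor SYMPK for azacytidine (adjusted p = 0.0668). Azacytidine against control gave 2 higher and 2 lower of the 17 factors, and within the knockdown it gave 2 and 4, with medians of 0.02 and 0.03. Over all genes these comparisons gave 12.2% higher and 13.8% lower, with a median of 0.05, and 16.8% and 25.5%, with a median of -0.09. Total counts changed the latter to 22.9% and 19.96%, with a median of 0.09, and the list's 0.03 to 0.21.

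Of 22 RNA-binding proteins and splicing factors, 1 was higher and 2 were lower with the knockdown, and 0 and 3 under azacytidine, with medians of 0.10 (-0.13 under total counts) and -0.06. These counts stand against 16.4% higher and 3.73% lower of all genes, and 9.09% and 5.93%, with medians of 0.18 (-0.04 under total counts) and 0.05. HNRNPA1, a splicing repressor that binds TDP-43, had 149 reads in the control, 84 in the knockdown, 96 with azacytidine and 43 with both. It fell with the knockdown in both comparisons (log2 ratios -0.97 and -1.12, adjusted exact binomial p = 1.33e-05 and 0.000307), as 0.749% of all genes did, but did not pass in the additive model (edgeR quasi-likelihood test, log2 ratio -1.04, adjusted p = 0.388). HNRNPA1 has many processed copies in the genome, so its counts are uncertain. With azacytidine 0 were higher and 4 lower, and within the knockdown 2 higher and 7 lower, with medians of -0.17 and -0.34 against 0.05 and -0.09 over all genes. Of all genes 12.2% were higher and 13.8% lower, and 16.8% and 25.5%. Total counts moved the -0.34 to -0.15 and the median of all genes there to 0.09. PTBP1, a splicing repressor of non-neuronal and dividing cells, had 147, 143, 52 and 63 reads and fell (log2 ratios -1.16 and -0.68, adjusted exact p = 2.79e-06 and 0.00496). SRSF1, an SR protein that activates exons, had 135, 136, 70 and 38 reads and fell (log2 ratios -0.62 and -1.33, adjusted exact p = 0.0158 and 6.85e-07). HNRNPC, which packages nascent RNA, had 197, 220, 115 and 89 reads and fell (log2 ratios -0.45 and -0.80, adjusted exact p = 0.0358 and 3.01e-05), where 9.96% of all genes were lower in both comparisons. None of these 3 passed for azacytidine in the additive model (edgeR quasi-likelihood test, adjusted p = 0.0711, 0.0737 and 0.174). The markers of dividing and progenitor cells were lower in the same libraries, and their part in these 3 results was not tested.

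Of 14 tested genes of nonsense-mediated decay and the nuclear exosome, 5 were higher and 0 lower with the knockdown, and 2 and 0 under azacytidine, with medians of 0.32 and 0.10. Of all genes 16.4% were higher and 3.73% lower, and 9.09% and 5.93%, with medians of 0.18 and 0.05. Total counts moved the list's 0.32 to 0.10 and the 0.18 of all genes to -0.04. Azacytidine gave 3 higher and 0 lower members, and within the knockdown 3 and 2, with medians of 0.20 and 0.10 (0.29 under total counts). The shares of all genes were 12.2% and 13.8%, and 16.8% and 25.5%, with medians of 0.05 and -0.09 (0.09 under total counts). SMG9, a regulator of the kinase SMG1, had 20, 24, 35 and 32 reads and rose with azacytidine by 1.12 and 0.91 (adjusted exact binomial p = 0.0204 and 0.0490), where 6.31% of all genes were higher in both comparisons. In the additive model its azacytidine ratio of 1.02 did not pass (edgeR quasi-likelihood test, adjusted p = 0.132).

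**Figure D5:**
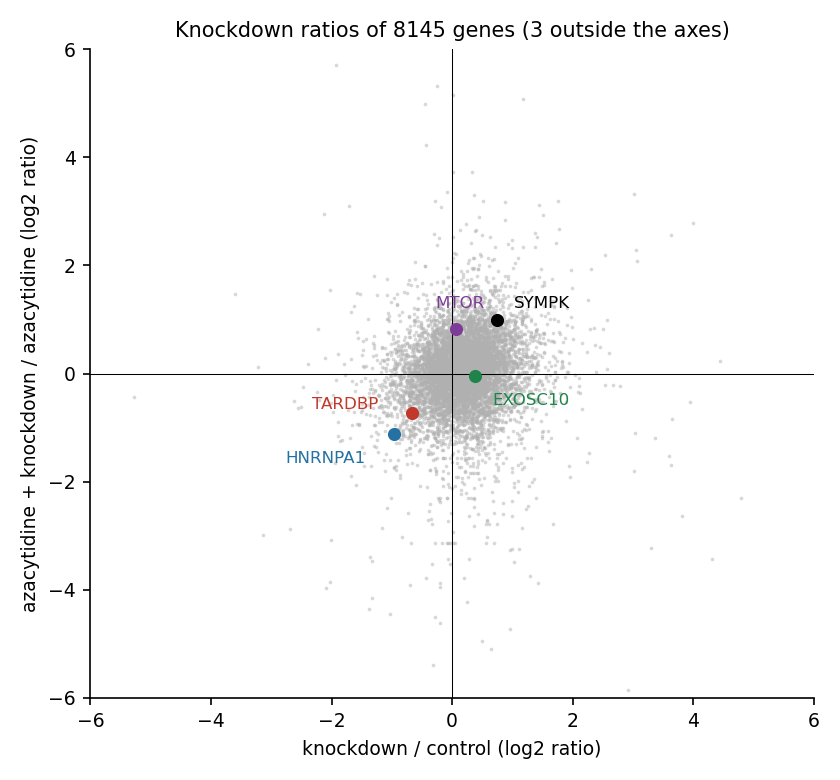
Log2 ratio of the knockdown without azacytidine (x axis) and with it (y axis) for 8145 genes (grey points), with TARDBP, its 2 tested neighbours and 2 list members named; 3 genes lie outside the axes. TARDBP lies at -0.67 and -0.73 and HNRNPA1 at -0.97 and -1.12, while EXOSC10 lies at 0.39 and -0.04 and MTOR at 0.07 and 0.82.

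The genes whose reads followed those of TARDBP most closely were found by the distance between log2 levels centred over the 4 libraries. The nearest was AKR1B1, an aldo-keto reductase, with 30 reads in the control, 20 in the knockdown, 21 with azacytidine and 12 with both, and a distance of 0.0394. MDH1, the cytosolic malate dehydrogenase, followed at 0.111 with 45, 33, 35 and 20 reads. ACAT2, a thiolase of the cytosol (0.126), the small GTPase RHOA (0.149) and ING5, a reader of histone marks (0.152), completed the nearest 5. The counting error of TARDBP alone gives a distance of 0.307, and 42 of 8144 genes lay within 0.25 and 373 within 0.5, so the order of these genes is not resolved over 4 libraries. Ranked by Pearson's r instead, 2 of these 5 stayed among the nearest 5.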

How the data were processed

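Per the labels, polyadenylated RNA of 4 libraries was read by PacBio Iso-Seq with MarathonRT first strands. The aligner was minimap2 and the genome hg38, per the file headers, and the annotation's source field names Bambu, which assigns reads to transcripts by their introns; versions are not given in the sources used here. The deposited gene, transcript and full-length tables hold estimated counts, and the deposited unique table holds counts. The deposited CPM values were used only to find their denominator, the gene table's sum. All deposited gene and unique counts were even (0 exceptions, largest distance 0.00031), so counts were divided by 2 to give reads, and transcript reads were rounded for tests; no source states why they are even. Gene reads above the sum of transcript reads were taken as in no transcript.

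The 8145 genes averaging at least 20 reads were compared by a two-sided exact binomial test on TMM effective sizes (edgeR 4.0.16) with Benjamini-Hochberg adjustment. Ratios used a pseudocount of 0.5 reads and Clopper-Pearson intervals. Transcript shares were compared by two-sided Fisher's exact tests, over transcripts with at least 10 reads. Intervals, and the limit of 3 reads for a count of 0, hold for counting error alone: PCR copies of a molecule are not independent. The tests were tested on simulated data. For the exact tests these held counting error alone, so they cannot show how spread between libraries affects the calls. Symbols came from a GENCODE table by gene identifier. Named were TARDBP and its transcripts with reads, tested neighbours within 200 kb, the nearest 5 genes and, from each list, up to 4 members past the threshold in the same direction in both comparisons of a treatment. Of these, 1 list member is not reported here, nor is 1 splice site window. Members and lists were chosen with earlier results of these data known. Alternatives included an additive edgeR quasi-likelihood model of both treatments over the 4 libraries, added after seeing the data. Others were total counts, DESeq2 1.42.0 size factors, no filter, other count tables, annotated transcripts alone, unhalved counts and, for gene ratios, a pseudocount of 2.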

Additional observations from a re-analysis of the deposited data

How the results depend on the processing

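No paired analysis was possible because the groups share fewer than 2 replicate numbers. An additive edgeR model over the 4 libraries, chosen after seeing the data, gave TARDBP -0.70 for the knockdown (adjusted p = 0.486), so the call without azacytidine was lost, and -0.21 for azacytidine (adjusted p = 0.655). It called 3 genes higher and 0 lower for the knockdown, against 1335 and 304 without azacytidine and 740 and 483 with it in the exact test, and 248 and 590 for azacytidine, against 995 and 1123 without the knockdown and 1368 and 2078 within it. The log2 ratio of TARDBP with the knockdown ranged from -1.51 to -0.66 without azacytidine and from -1.29 to -0.70 with it over 9 alternatives each. Without azacytidine it missed the adjusted threshold when all genes with at least 1 read were tested (-0.67, adjusted exact p = 0.0543) and for full-length counts (-1.51, adjusted exact p = 0.103), where TARDBP averaged 15.5 reads and was below the minimum of 20. With azacytidine it passed under total counts (-0.79, adjusted exact p = 0.0316) and with unhalved counts (-0.73, adjusted exact p = 0.00108). The difference between the ratios changed sign under total counts (0.10), DESeq2 size factors (0.0602) and sums of transcript counts (0.0376). Unhalved counts, which count each read as 2, also passed for the share in no transcript (17.4 and 17.5 points), for the share spliced after the stop codon with azacytidine within the knockdown (14.3 points, adjusted exact p = 0.0415) and for the usage of 1 TARDBP transcript there. Unique reads turned the azacytidine difference in the spliced share to -1.43 points without the knockdown. That value rests on 1 of 70 unique reads in the control and 0 of 43 with azacytidine. The cause of the other changes was not tested. For TARDBP itself, 59 alternatives kept direction and side of the threshold, or the number called. Another 5 newly passed, 3 no longer passed, 4 changed sign and 1 moved a count. The additive model is counted there in each comparison of a treatment. Some of the 59 could not come out otherwise. The spliced share from annotated transcripts alone repeated the main values, since 0 TARDBP transcripts were unannotated. A pseudocount of 2 enters the ratio and not the exact test, so it left the p-values unchanged. For the list medians and the nearest genes, 17 alternatives stayed the same and 9 moved. Full-length usage gave no value, since 0 TARDBP transcripts reached the minimum. Total counts moved the median of all genes in the knockdown without azacytidine from 0.18 to -0.04 and the calls from 16.4% higher and 3.73% lower to 7.70% and 7.76% (11.6% and 5.16% with DESeq2 size factors), and with it the list medians from 0.26 to 0.04 (cleavage), 0.10 to -0.13 (RNA-binding) and 0.32 to 0.10 (decay). Between 29 and 86 transcript reads per library limit every statement on TARDBP splicing.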
